A study of Rattus norvegicus with 28 samples.

Results

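Gene expression in the contused rat spinal cord 8 weeks after injury (group T8) was compared with that 1 week after injury (T1). The comparison rested on 8 of the 28 arrays of the series, 4 per group, each array holding RNA of 1 biological replicate. All animals were adult female Sprague Dawley rats that had received a severe mid-thoracic contusion, and neither T8 nor T1 animals received neural progenitor cells. The tissue was a length of thoracic cord around the injury epicentre, taken without the dura mater after perfusion with saline. Post-surgical care included an antibiotic (enrofloxacin) and an analgesic (buprenorphine) in the first days. The care described for all animals also included the immunosuppressant FK-506 (tacrolimus), started before cell transplantation and kept to the end point. When it was started in animals without a transplant, such as T1 and T8, is not given in the sources used here. Injured animals that served as transplantation controls were injected with cell-free medium, and the sources do not say whether the T1 animals were among them. The effects of such an injection cannot be told apart from those of time after injury. Age also cannot be told apart from time after injury, because the uninjured cords (T0, labelled sham) were taken at a single time. Arrays of T0 and of cords taken after 2 and 4 weeks (T2 and T4) are used below only to place the levels.

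After a contusion, blood cells enter the cord, neutrophils and monocyte-derived macrophages clear the debris, and glia, endothelial cells and fibroblasts divide and lay down matrix. Over the following weeks cell division and acute inflammation subside, a fibrotic core and a glial border mature, and Schwann cells from the nerve roots can enter the lesion and form peripheral myelin there. Meningeal fibroblasts and ependymal cells, which line the central canal and carry motile cilia, lie next to the lesion and take part in the response.

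Each value was the authors' quantile-normalised log2 signal of an Agilent 1-colour array, averaged over the probes of a gene, so that a difference of 1 is a 2-fold difference in signal. In T1 the share of probes well above background was between 79.0% and 81.9% per array, and in T8 between 79.0% and 82.7%. The raw scanner outputs deposited with the series conflict with these values over which sample is which. Each column of the value table had the rank order of exactly 1 scanner output, but for 16 of the 28 samples that was an output deposited under another sample. Among the arrays compared here, the sources agreed on 1 of 4 in T1 (replicate 1) and on 2 of 4 in T8 (replicates 2 and 4). The results below follow the samples of the value table. These 3 undisputed arrays were also the arrays of the first scan session, so their difference is printed as the change in the undisputed arrays. With the scanner outputs taken under their deposited samples, limma called 0 features (638 at an unadjusted p under 0.05). The median changes of the early inflammation, macrophage and scar matrix lists described below were then 0.34, 0.41 and 0.29, opposite in sign to those of the value table. Of 97 called genes examined one by one, 19 then changed sign and 78 kept their direction without a call. All calls below, and the directions of these lists and genes that changed sign, therefore hold only if the value table has the samples right.

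With the value table, limma called 3501 of 35469 features (9.87%) different between T8 and T1 at an adjusted p under 0.05. Of these, 1933 (5.45%) were higher and 1568 (4.42%) lower at T8. A change of at least 4-fold was found for 113 of the higher and 161 of the lower features. The median change over all features was 0.00 on the log2 scale, which quantile normalisation largely fixes. With the scanner signals scaled to the 75th percentile instead, that median was 0.15 and 65.9% of the calls were higher, against 55.2% here. In the undisputed arrays alone, where the single T1 array was assumed to vary like the other groups, 666 features were called higher and 697 lower, and 1005 of the 3501 calls were kept.

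Named genes are the 15 largest rises and 15 largest falls among called genes with a symbol, signal well above background on all arrays of the brighter group and no overlap between groups. They are described by the values that chose them. The rank used fitted differences, so the place of genes near background is uncertain. With normexp background correction and an offset of 50, which pulls dim signals together, the 97 called genes examined one by one kept their direction and call, but the change of 29 was smaller by over 1.5 times. Where such a gene is described, its change with normexp is given beside it.

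The largest fall was that of H19, a long non-coding RNA of an imprinted locus (probe at chr1:202822987-202823046, rn4). Its log2 signal was 11.49, 12.40, 11.92 and 10.24 in the T1 replicates and 6.67, 6.27, 6.07 and 6.51 in the T8 replicates. All T8 values lay more than 3 units below the lowest T1 value. The change was -5.13 ± 0.49 (standard error; limma adjusted p = 2.23e-07), and it was -5.10 in the undisputed arrays. Igf2, the growth factor gene that neighbours H19 and is imprinted in the opposite sense, moved the other way, from between 13.76 and 14.75 at T1 to between 15.82 and 16.66 at T8 (change 2.08 ± 0.36, limma adjusted p = 3.75e-04).

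Postn, encoding the matrix protein periostin of activated fibroblasts, gave 10.57, 11.47, 10.62 and 10.99 at T1 and 6.31, 6.76, 7.39 and 5.78 at T8. Cthrc1, a secreted protein of matrix-forming fibroblasts, ranged from 11.39 to 12.17 at T1 and from 7.69 to 8.00 at T8. Their changes were -4.35 ± 0.42 and -4.09 ± 0.38 (limma adjusted p = 2.59e-07 and 1.50e-07), and in neither gene did the groups overlap. By T8 the Cthrc1 mean (7.79) was next to that of the sham cords (7.75), whereas the Postn mean (6.56) was still above the sham mean of 4.80.

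Trem1, an activating receptor of neutrophils and monocytes, gave 9.18, 8.67, 8.37 and 8.61 at T1 and 3.41, 3.76, 4.62 and 5.08 at T8, where 2 of 4 arrays were well above background. Its change was -4.49 ± 0.34 (limma adjusted p = 1.17e-08). Adam8, a metalloprotease of leukocytes, fell from between 12.21 and 12.59 to between 8.48 and 9.13 (-3.54 ± 0.39, limma adjusted p = 1.24e-06). Cd300le, a myeloid receptor, fell by 2.96 (SE 0.49, limma adjusted p = 1.98e-04). In each of these genes every T8 array was below every T1 array. The change of Trem1 with normexp was -2.02.

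Reg1a, Shcbp1 and Prr11 were not well above background on any T8 array, so that only bounds can be given. Reg1a, a secreted lectin-like protein, was at least 2.05-fold lower at T8. Shcbp1, an adaptor protein of dividing cells, was at least 1.94-fold lower, and Prr11, a cell cycle protein, at least 2.44-fold lower. The bounds set the mean T1 signal against the lowest signal well above background on each T8 array, or against the gene's own signal where that was higher. They hold only for the signals of the value table. With normexp the log2 changes of Reg1a, Shcbp1 and Prr11 were -0.40, -0.33 and -0.38, which are smaller than these bounds. The other large falls by fitted difference were those of Crisp1 (-4.51), a secreted cysteine-rich protein, Myo18b (-2.99) and Csrp3 (-2.73), both known from striated muscle, Osap (-2.83), now named Mgarp, and Cenpf (-2.76), a kinetochore protein. Their changes with normexp were -2.90 for Crisp1, -0.85 for Myo18b, -0.65 for Osap and -1.09 for Cenpf. Myo18b was well above background on 2 of 4 T8 arrays and Osap on 1 of 4. A list of 12 skeletal muscle genes did not move with Myo18b and Csrp3 (median change -0.19, 0 called by limma, 3 at an unadjusted p under 0.05).

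The largest rise was that of Ccl21b, a chemokine that draws T cells and dendritic cells through the receptor Ccr7 (probe at chr5:59239182-59239241, rn4; the reference table of current names lists it as Ccl21). Its log2 signal was 2.54, 3.09, 3.34 and 2.62 in T1, where it was not well above background on any array, and 9.39, 10.44, 11.41 and 11.31 in T8. The groups did not overlap, and by the signals of the value table the T8 level was at least 124-fold higher (limma adjusted p = 1.35e-08). This bound was formed as above, against the T1 arrays, and holds only for the value table. The log2 change with normexp was 3.93, which is smaller than this bound. The 4-week replicates still lay between 3.35 and 5.96, so the signal at 8 weeks stood apart from every earlier group. Whether the probe also reads near-identical copies of the gene was not tested. Ccl19, the other ligand of Ccr7, was not among the 15 largest rises and was chosen after its values were seen. It gave 9.91, 10.27, 9.98 and 10.29 at T1 and 12.87, 13.32, 13.26 and 13.70 at T8 (3.17 ± 0.38, limma adjusted p = 3.43e-06), with a 4-week mean of 12.46.

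Mmrn1, a protein of platelets and lymphatic endothelium, rose from between 2.44 and 3.94 to between 6.15 and 7.59 (3.24 ± 0.72, limma adjusted p = 0.00402). Its T1 signals were near background, and that of replicate 1 (2.44) was under the lowest signal well above background on any array (3.3). Pkhd1l1, a large membrane receptor-like protein, rose to between 5.06 and 6.17, with 1 of 4 T1 arrays well above background. Serpinb10, a protease inhibitor of blood cells, rose from between 4.48 and 6.33 to between 8.66 and 9.77. All 3 were higher in every T8 array than in any T1 array, and their changes with normexp were 0.915 for Mmrn1, 0.503 for Pkhd1l1 and 1.91 for Serpinb10.

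Prx encodes periaxin, a scaffold of myelinating Schwann cells. Its log2 signal was 6.85, 9.34, 8.03 and 7.54 at T1 and 11.24, 11.17, 11.78 and 11.21 at T8. The T1 replicates were spread over more than 2 units and the T8 replicates over less than 1, without overlap. The change was 3.41 ± 0.47 (limma adjusted p = 2.20e-05). Prx was already above T1 at 2 weeks, with a mean signal of 10.21.

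Kcnj13, an inward-rectifier potassium channel of epithelia, gave 3.90, 5.45, 6.97 and 3.93 at T1, where 2 of 4 arrays were well above background, and 9.40, 9.56, 9.80 and 10.08 at T8. Lect1, now named Cnmd and encoding chondromodulin, an inhibitor of vessel growth in cartilage, rose from between 4.10 and 7.41 to between 9.79 and 10.49. Slc9a2, a sodium/hydrogen exchanger of epithelia, gave 7.24, 7.77, 8.25 and 6.72 at T1 and 11.43, 11.25, 11.62 and 11.88 at T8. The changes were 4.64 ± 0.65, 4.68 ± 0.71 and 4.05 ± 0.32 (limma adjusted p = 2.64e-05, 7.94e-05 and 2.22e-08), and with normexp those of Kcnj13 and Lect1 were 2.57 and 2.84. Slc9a2 at 1 week was near the sham mean of 7.81, so its 8-week signal was above that of both the uninjured and the early injured cord.

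Cdh1, encoding the epithelial adhesion protein E-cadherin, rose from between 6.75 and 10.18 to between 12.29 and 13.04 (3.87 ± 0.62, limma adjusted p = 1.48e-04). The sham replicates lay between 2.97 and 4.44, far below both injured groups. Wnt6, a secreted Wnt ligand, rose by 3.27 ± 0.49 (limma adjusted p = 7.10e-05) and Cela3b, an elastase-like protease, by 3.30 ± 0.42. Calml4, a calmodulin-like protein of the brush border, rose from a mean of 9.24 to 12.74 (limma adjusted p = 4.18e-08). Agr2, a protein disulphide isomerase of secretory epithelia, and Azgp1, a lipid-mobilising glycoprotein, were well above background on 1 of 4 T1 arrays and on all T8 arrays, where they ranged from 4.46 to 7.66 and from 5.49 to 6.51. Their changes with normexp were 0.689 and 0.608.

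**Figure D1:**
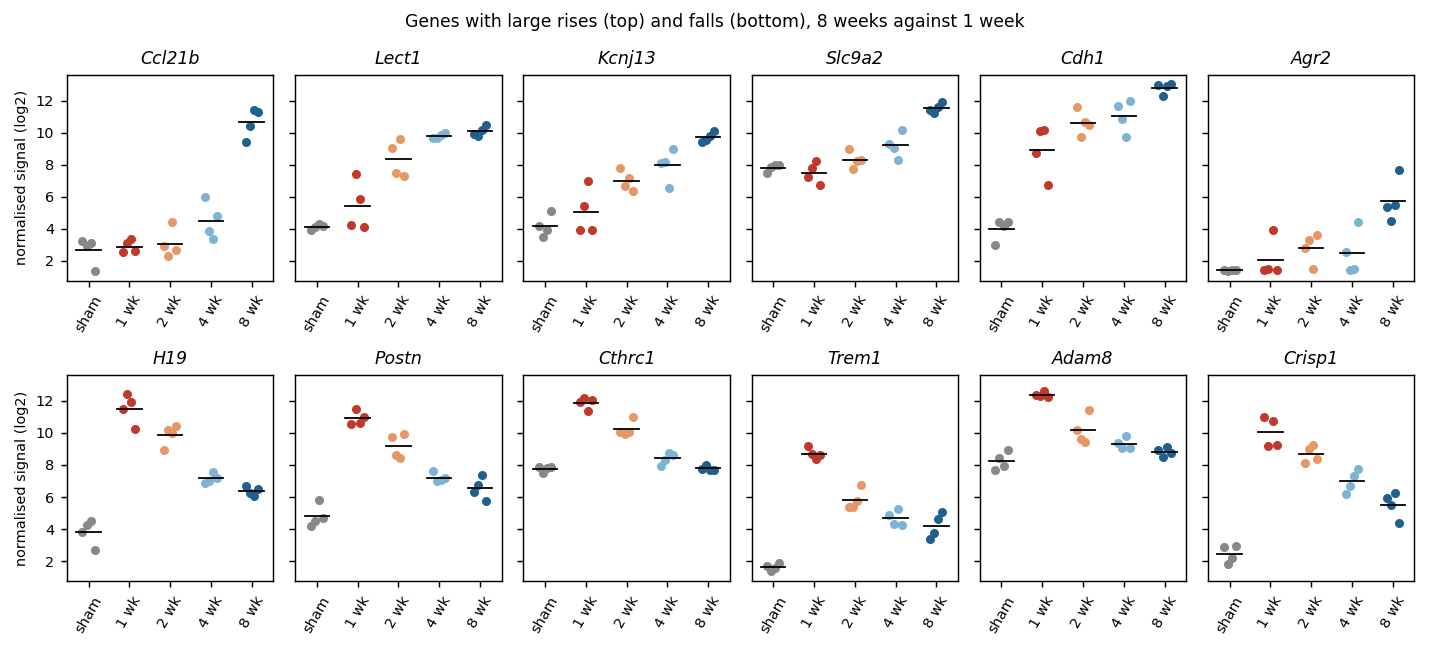
Normalised log2 signal (vertical axis) of 6 genes with large rises (upper row) and the 6 with the largest falls (lower row) in sham cords and in cords taken 1, 2, 4 and 8 weeks after injury. Each point is 1 array and each line the mean of 4 arrays. Ccl21b stays low through 4 weeks and lies between 9.39 and 11.41 at 8 weeks, whereas Lect1 is near its 8-week signal at 4 weeks and the 6 falling genes are highest at 1 week.

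A set of 28 gene lists for cell types, matrix, inflammation and metabolism was then read, each by its counts of called genes against the 5.45% higher and 4.42% lower among all features. Of 567 distinct genes found on the array, 171 were called. The cell cycle list had the lowest median change, and the meningeal, ependymal and Schwann cell lists the highest.

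**Figure D2:**
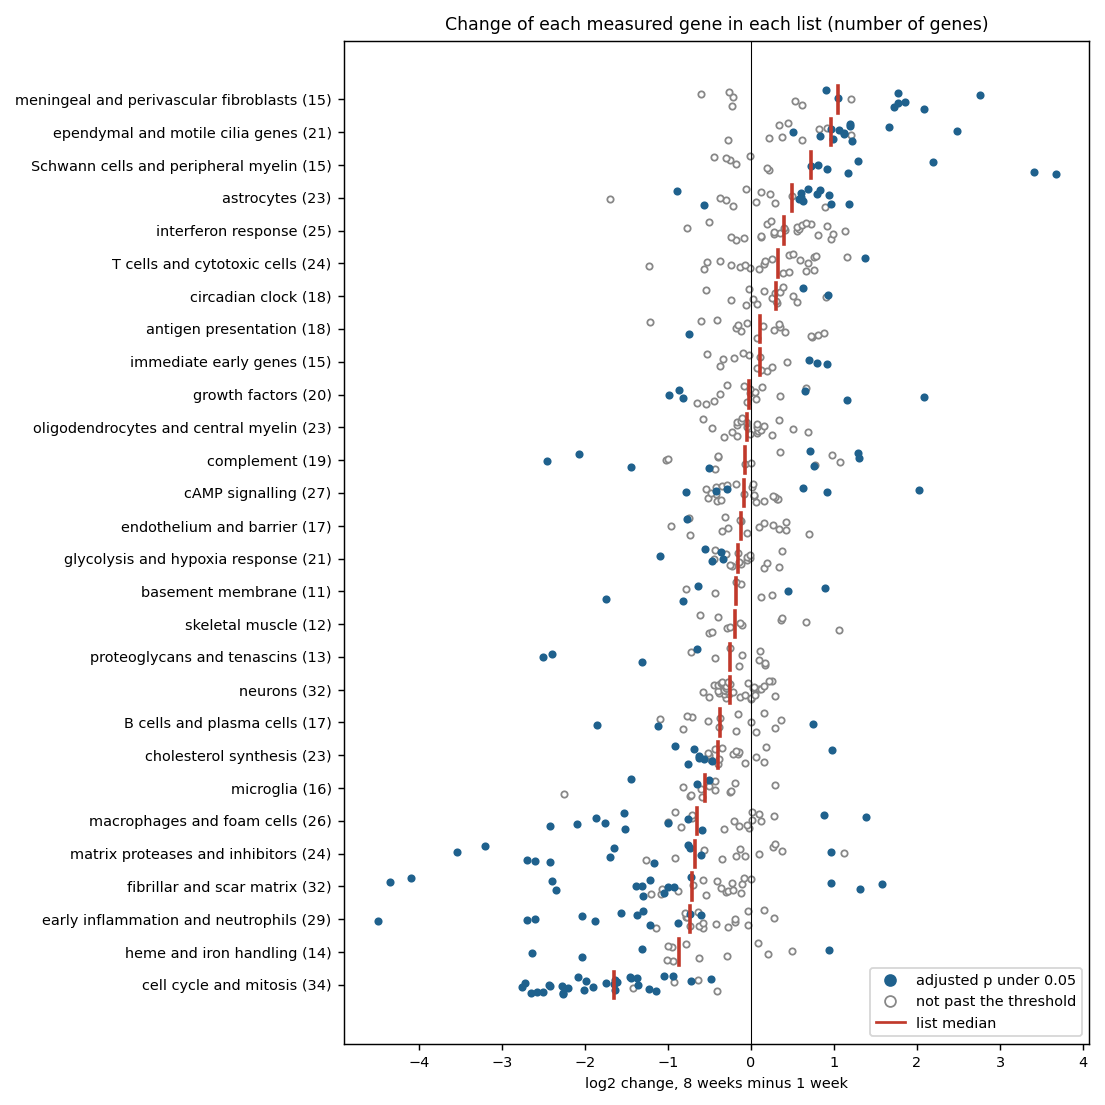
Log2 change from 1 to 8 weeks (horizontal axis) of every measured gene of each list (rows, number of genes in brackets). Filled points passed an adjusted p of 0.05, open points did not, and bars mark list medians, which run from -1.65 for cell cycle and mitosis to 1.05 for meningeal and perivascular fibroblasts.

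Genes of DNA replication and mitosis fell together. Of 34 measured genes of the cell cycle list, 30 were called lower at T8 and the remaining 4 (Aurkb, Mcm2, Mcm7 and Ccnd1) had changes between -1.42 and -0.41. The median change was -1.65 on the log2 scale, against 0.00 for all features, and it was also -1.65 in the undisputed arrays, where 25 genes were called lower. With each array left out in turn, between 29 and 31 genes were called lower. Under the deposited samples of the scanner outputs the median was -0.10.

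The promoters of several of these genes hold CCAAT elements together with the cell cycle homology element (TTTGAA). Through the cell cycle homology element mitotic genes are known to be silenced outside division. A stretch of 180 bases before the transcription start (RefSeq, GRCr8) is shown for the 4 called genes with the largest falls that held both motifs there, 5′ to 3′ on the gene's strand, with CCAAT and TTTGAA, on either strand, in capitals.
Ccnb2, chr8:79981659-79981838, minus strand: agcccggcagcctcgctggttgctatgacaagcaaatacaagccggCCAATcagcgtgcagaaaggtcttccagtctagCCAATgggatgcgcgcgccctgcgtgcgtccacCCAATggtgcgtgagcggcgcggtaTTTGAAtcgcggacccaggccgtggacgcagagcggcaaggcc
Prc1, chr1:143659301-143659480, plus strand: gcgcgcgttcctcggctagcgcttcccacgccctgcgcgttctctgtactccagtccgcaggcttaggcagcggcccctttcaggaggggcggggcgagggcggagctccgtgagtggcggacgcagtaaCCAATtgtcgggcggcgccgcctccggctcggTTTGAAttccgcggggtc
Top2a, chr10:84473094-84473273, minus strand: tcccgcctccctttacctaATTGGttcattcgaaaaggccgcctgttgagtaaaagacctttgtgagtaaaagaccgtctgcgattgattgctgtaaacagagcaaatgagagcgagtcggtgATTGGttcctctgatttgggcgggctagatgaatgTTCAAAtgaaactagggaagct
Cdk1 (Cdc2 on the array), chr20:19265113-19265292, plus strand: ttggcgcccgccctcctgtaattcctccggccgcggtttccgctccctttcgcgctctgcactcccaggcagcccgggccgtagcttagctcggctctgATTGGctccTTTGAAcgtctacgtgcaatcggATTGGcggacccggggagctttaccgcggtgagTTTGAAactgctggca
In each stretch a TTTGAA lies nearer to the start than the last CCAAT.

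Promoter sequences, from 250 bases before to 50 after the start, were found for 25 of the 34 genes, with none for Ccna2, Ccnd1, Aurkb, Tpx2, Rrm2, Mcm4, Ube2c, Foxm1 and E2f1. Because under 80% of the list had a sequence, the shares describe these 25 genes and are void for the whole list. Both CCAAT and TTTGAA were in 11 of the 25 (44.0%), against 7.41% of all 33469 promoters. CCAAT alone was in 18 (37.5% of all promoters), TTTGAA in 13 (18.3%) and an E2F motif, TTCGCGC or TTGGCGC, in 6 (3.66%). All were searched on both strands, and a match is a description of the letters, not a site in use.

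Of the genes with the printed promoters, Ccnb2, a mitotic cyclin, gave 10.00, 10.01, 9.44 and 10.27 at T1 and 7.65, 7.48, 7.30 and 7.28 at T8 (-2.50 ± 0.23, limma adjusted p = 1.50e-07). Cdc2 (Cdk1), the kinase that drives entry into mitosis, gave 13.18, 13.05, 12.55 and 13.11 at T1 and 10.50, 10.98, 10.58 and 10.75 at T8 (-2.27 ± 0.26, limma adjusted p = 1.93e-06). In both genes every T8 array was more than 1.5 units below every T1 array. Prc1, which bundles microtubules of the central spindle, fell by 2.43 (SE 0.37), and Top2a, the topoisomerase that untangles chromosomes, by 2.27 (SE 0.24).

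Ccnb1, the partner cyclin of Cdk1, fell by 2.58 (SE 0.21, limma adjusted p = 2.40e-08) and Ccna2, the cyclin of S and G2 phase, by 2.65 (SE 0.31). Rrm2, the ribonucleotide reductase subunit that supplies deoxynucleotides, fell by 2.72 (SE 0.21). The mitotic motor Kif11 (-2.42), the kinase Plk1 (-2.20), the replicative helicase subunit Mcm5 (-1.98) and the chromosomal passenger Birc5 (-1.91) also fell. With normexp the changes of Prc1, Ccna2, Rrm2 and Kif11 were -1.20, -1.62, -1.59 and -0.52, and the list median was -1.20. The mean Ccnb1 signal at T8 (8.45) was still above that of the sham cords (7.13), and over the list 33 of 34 genes were called higher at T1 than in T0 (19.1% of all features) and 28 of 34 at T8 than in T0 (18.2%). These comparisons share arrays with that of T8 and T1.

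**Figure D3:**
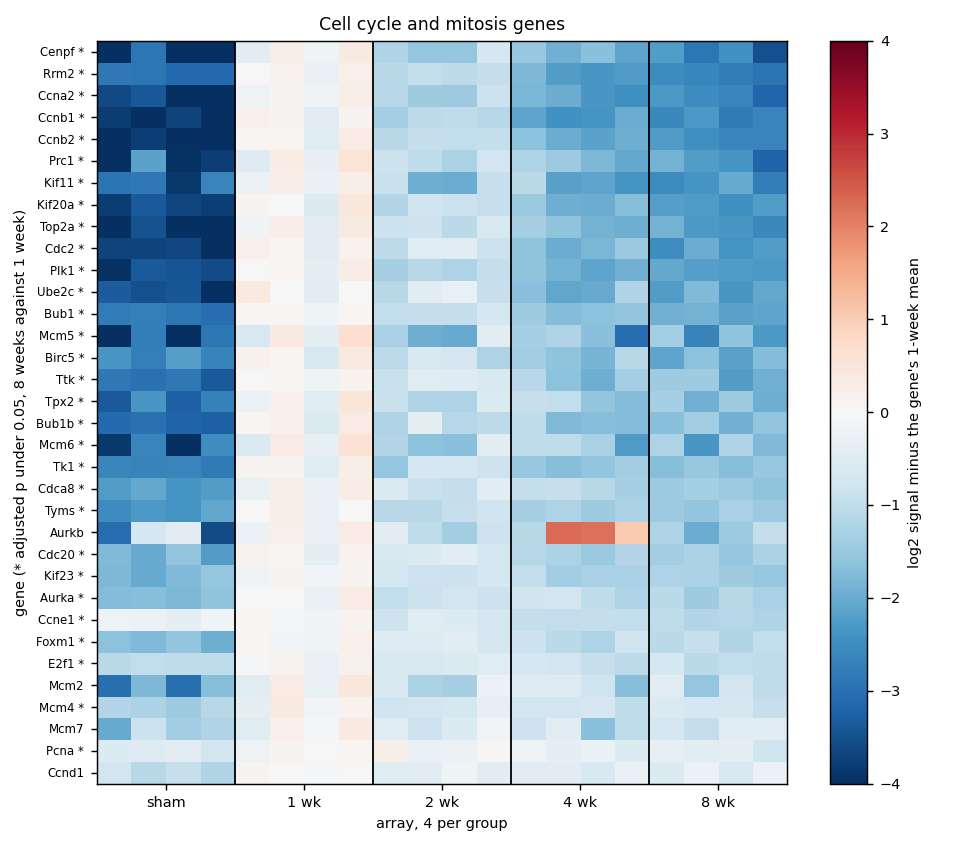
Log2 signal minus the gene's 1-week mean (colour) for 34 cell cycle and mitosis genes (rows, ordered by change) on the 20 arrays of the sham, 1-, 2-, 4- and 8-week groups (columns, 4 per group). Asterisks mark the 30 genes called lower at 8 weeks. Signal is highest at 1 week and lower on every 8-week array for genes at the top of the plot.

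Genes of early inflammation fell in part. Of 29 genes, 12 were called lower at T8 and 17 were not called (median change -0.74, and -0.73 in the undisputed arrays with 6 called lower), and between 8 and 11 were called lower with an array left out. Besides Trem1, these included the neutrophil proteases Mmp9 and Mmp8. Mmp9 gave 6.97, 7.91, 5.80 and 9.22 at T1 and 4.66, 4.71, 4.83 and 4.91 at T8. The T1 replicates were spread over 3 units, yet none overlapped T8 (-2.70 ± 0.61, limma adjusted p = 0.00447). Mmp8 fell by 2.60 (SE 0.62, limma adjusted p = 0.00676) and Ccl7, a monocyte chemokine, by 1.88 (SE 0.40). Il1rn, the interleukin 1 receptor antagonist, fell by 1.56 (SE 0.19), and Spp1, osteopontin, by 1.37 (SE 0.20). With normexp the changes of Mmp9, Mmp8 and Il1rn were -1.23, -1.62 and -0.85, and the list median was -0.32. The classical cytokine and chemokine genes Il1b (-0.28), Tnf (-0.74), Ccl2 (-0.58) and Cxcl1 (-0.04) did not pass the threshold. Over the list, 25 of 29 genes were called above sham at T1 (19.1% of all features) and 20 of 29 at T8 (18.2%).

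Among genes of macrophages and foam cells, 9 of 26 were called lower and 2 higher (median -0.65, and -0.51 in the undisputed arrays with 3 called lower and 1 higher), with between 5 and 9 called lower when an array was left out. Fabp4, a fatty acid binding protein of lipid-laden macrophages, gave 10.66, 11.67, 10.98 and 11.35 at T1 and 8.78, 9.31, 9.03 and 7.85 at T8 (-2.42 ± 0.39, limma adjusted p = 1.45e-04). Cd36, a scavenger receptor for oxidised lipid, fell by 2.10 (SE 0.40), Arg1, the arginase of alternatively activated macrophages, by 1.86 (SE 0.35) and Lpl, lipoprotein lipase, by 1.52 (SE 0.30). Chi3l1, a chitinase-like secreted protein, rose by 1.38 (SE 0.18, limma adjusted p = 1.57e-05) and Pparg, a lipid-sensing nuclear receptor, by 0.88 (SE 0.20; 0.31 with normexp). General macrophage genes such as Gpnmb (-0.33), Ctsd (-0.21) and Apoe (-0.02) were not called. Over the list 24 of 26 genes were called above sham at T1 (19.1% of all features) and 25 of 26 at T8 (18.2%). The list as a whole thus remained above the uninjured level at both times. In bulk tissue, fewer cells of a type and less RNA per cell cannot be told apart.

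Of 16 microglial genes 3 were called lower, among them C1qc (-1.45 ± 0.16, limma adjusted p = 1.88e-06), a chain of complement C1q, and Trem2 (-0.65 ± 0.14), a lipid-sensing receptor. The homeostatic genes Tmem119 (-0.73) and P2ry12 (-0.59) were not called. The complement genes were divided, with 4 of 19 called lower and 4 higher. C5ar1, the receptor for C5a, fell from between 12.89 and 13.10 to between 10.14 and 10.76 (-2.45 ± 0.21, limma adjusted p = 6.53e-08), and Cfp, properdin, by 2.07 (SE 0.35). Cfb, factor B of the alternative pathway, rose from between 10.45 and 10.88 to between 11.48 and 12.57 (1.30 ± 0.21, limma adjusted p = 1.76e-04), and Serping1, the C1 inhibitor, rose by 1.29 (SE 0.15). Neither pair of groups overlapped in these 4 genes.

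Genes that handle heme and iron after bleeding included 3 of 14 called lower and 1 higher (median -0.86, -0.58 in the undisputed arrays and -0.46 with normexp). Hmox1, the heme-degrading oxygenase, gave 15.04, 14.37, 14.99 and 14.56 at T1 and 13.21, 12.36, 12.81 and 12.44 at T8 (-2.03 ± 0.27, limma adjusted p = 1.43e-05), with a sham mean of 10.31. Hp, haptoglobin, which binds free haemoglobin, fell by 2.63 (SE 0.27) to 8.23, near the sham mean of 8.20. Tfrc, the transferrin receptor, fell by 1.31 (SE 0.18), and Cp, the ferroxidase ceruloplasmin, rose by 0.94 (SE 0.18).

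Matrix genes fell unevenly. Of 32 genes of the fibrillar and scar matrix list, 12 were called lower and 3 higher at T8 (median -0.71, and -0.45 in the undisputed arrays with 3 called lower and 1 higher), and between 7 and 12 were called lower with an array left out. The falls were led by Postn and Cthrc1. Lox, the enzyme that cross-links collagen and elastin, gave 11.34, 12.17, 11.63 and 9.86 at T1 and 8.73, 8.40, 9.35 and 8.92 at T8 (-2.40 ± 0.46, limma adjusted p = 9.16e-04). Col8a1, a short-chain collagen, fell by 2.35 (SE 0.39) and Tgfb1, the profibrotic growth factor, by 0.73 (SE 0.18). The interstitial collagen genes Col3a1 (-1.21) and Col1a2 (-0.54) and the small proteoglycans Bgn (-0.23) and Dcn (-0.11) were not called. Changes over the 32 genes ran from -4.35 to 1.58, with 4 above 0, and the 3 genes called higher are not described here. Over the list, 31 of 32 genes were called above sham both at T1 (19.1% of all features) and at T8 (18.2%).

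Of 11 basement membrane genes 3 were called lower and 2 higher (median -0.18), and with an array left out between 1 and 2 were called lower and between 0 and 2 higher. The largest fall among them was that of Col4a2, a basement membrane collagen chain (-1.74 ± 0.25, limma adjusted p = 4.18e-05), and the largest rise was 0.89. Tnc, tenascin C, a matrix protein of injured tissue, gave 8.94, 9.95, 8.72 and 9.33 at T1 and 7.30, 5.87, 7.06 and 6.66 at T8 (-2.51 ± 0.43, limma adjusted p = 3.21e-04). Vcan, the chondroitin sulphate proteoglycan versican, fell by 1.31 (SE 0.13, limma adjusted p = 3.85e-07), whereas the lecticans Acan (-0.15), Ncan (0.17) and Bcan (0.17) did not pass the threshold. In both Tnc and Vcan all T8 arrays were below all T1 arrays, and the T8 mean of Vcan (9.78) was next to the sham mean of 9.74.

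Of 24 matrix proteases and inhibitors, 11 were called lower and 1 higher (median -0.67, and -0.77 in the undisputed arrays with 4 called lower). Plau, the urokinase plasminogen activator, fell by 1.65 (SE 0.29). Mmp3, stromelysin, fell by 2.42 (SE 0.42; change with normexp -0.74) and was well above background on 2 of 4 T8 arrays, and Mmp2, a gelatinase of fibroblasts, fell by 1.17 (SE 0.24). Sdc1, a cell surface proteoglycan of plasma cells and wound tissue, fell by 1.85 (SE 0.17, limma adjusted p = 9.74e-08). It is not a member of this list but of that of B cells and plasma cells. Of the 17 measured genes there, 2 were called lower, 1 higher and 14 not at all, with changes from -1.85 to 0.75.

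Genes of peripheral myelin rose. Of 15 Schwann cell genes, 8 were called higher at T8 and 7 were not called (median 0.72, and 0.70 in the undisputed arrays with 5 called higher), with between 6 and 8 called when an array was left out. Besides Prx, Cldn19, a claudin of Schwann cell junctions, rose from between 6.44 and 7.04 to between 8.19 and 9.27 (2.19 ± 0.30, limma adjusted p = 2.40e-05). With normexp its change was 1.42 and the list median 0.33, with 8 genes called higher. Pmp22, a peripheral myelin protein, rose by 1.17 (SE 0.12), and Pou3f1, a transcription factor of promyelinating Schwann cells, by 1.28 (SE 0.22). Genes of immature or repair Schwann cells, Ngfr (-0.18), Gdnf (-0.44) and Artn (-0.01), were not called. The list's summed signal, on the log2 scale, ranged from 14.71 to 14.98 over the T1 arrays and from 15.86 to 16.32 over the T8 arrays. Linear signals were summed, so the brightest genes weigh most in it. None of the 23 measured genes of oligodendrocytes and central myelin was called by limma (4 at an unadjusted p under 0.05), with a median change of -0.05 and a summed signal of 18.92 to 19.13 over the T1 arrays against 18.95 to 19.20 over the T8 arrays.

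Genes of motile cilia also rose. Of 21 genes of the ependymal list, 12 were called higher (median 0.96, and 0.81 in the undisputed arrays with 6 called higher), and between 11 and 12 with an array left out. Foxj1, the transcription factor that drives motile ciliogenesis, gave 12.73, 12.56, 12.83 and 12.63 at T1 and 14.06, 13.99, 13.82 and 13.76 at T8 (1.22 ± 0.16, limma adjusted p = 1.74e-05). The T1 values surrounded the sham mean of 12.71, so that the rise took the signal above that of the uninjured cord. Tekt2, a tektin of the axoneme, rose from between 7.67 and 8.42 to between 10.16 and 11.16 (2.48 ± 0.25, limma adjusted p = 4.11e-07), and the ciliary proteins Enkur and Rsph1 by 1.19 (SE 0.19) and 1.12 (SE 0.21). With normexp the list median was 0.42, with 13 genes called higher. Over the list, 9 of 21 genes were called below sham at T1 (25.1% of all features) and 1 above it (19.1%). At T8, 9 were called above sham (18.2% of all features) and 1 below it (21.5%).

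Genes of meningeal and perivascular fibroblasts rose in part, with 8 of 15 called higher (median 1.05, and 1.35 in the undisputed arrays with 4 called higher) and between 6 and 8 with an array left out. Ptgds, the prostaglandin D2 synthase of the leptomeninges, gave 15.05, 14.92, 15.45 and 14.75 at T1 and 17.69, 17.78, 17.75 and 17.99 at T8 (2.76 ± 0.21, limma adjusted p = 1.35e-08). The sham mean of 16.35 lay between the groups. Slc6a13, a GABA transporter of the leptomeninges, rose by 1.85 (SE 0.45, limma adjusted p = 0.00768), Igfbp2, a binding protein for insulin-like growth factors, by 1.72 (SE 0.26) and Osr1, a transcription factor of mesenchymal cells, by 1.77 (SE 0.34). Pdgfrb (-0.27) and Tbx18 (-0.21), genes of mural cells and fibroblasts, were not called. Summed over the list, the log2 signal ranged from 16.93 to 17.45 in T1 arrays and from 18.44 to 18.77 in T8 arrays. Linear signals were summed, so the brightest genes weigh most, and Ptgds alone lay between 17.69 and 17.99 at T8. How much meninges or nerve root each tissue piece held was not tested.

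**Figure D4:**
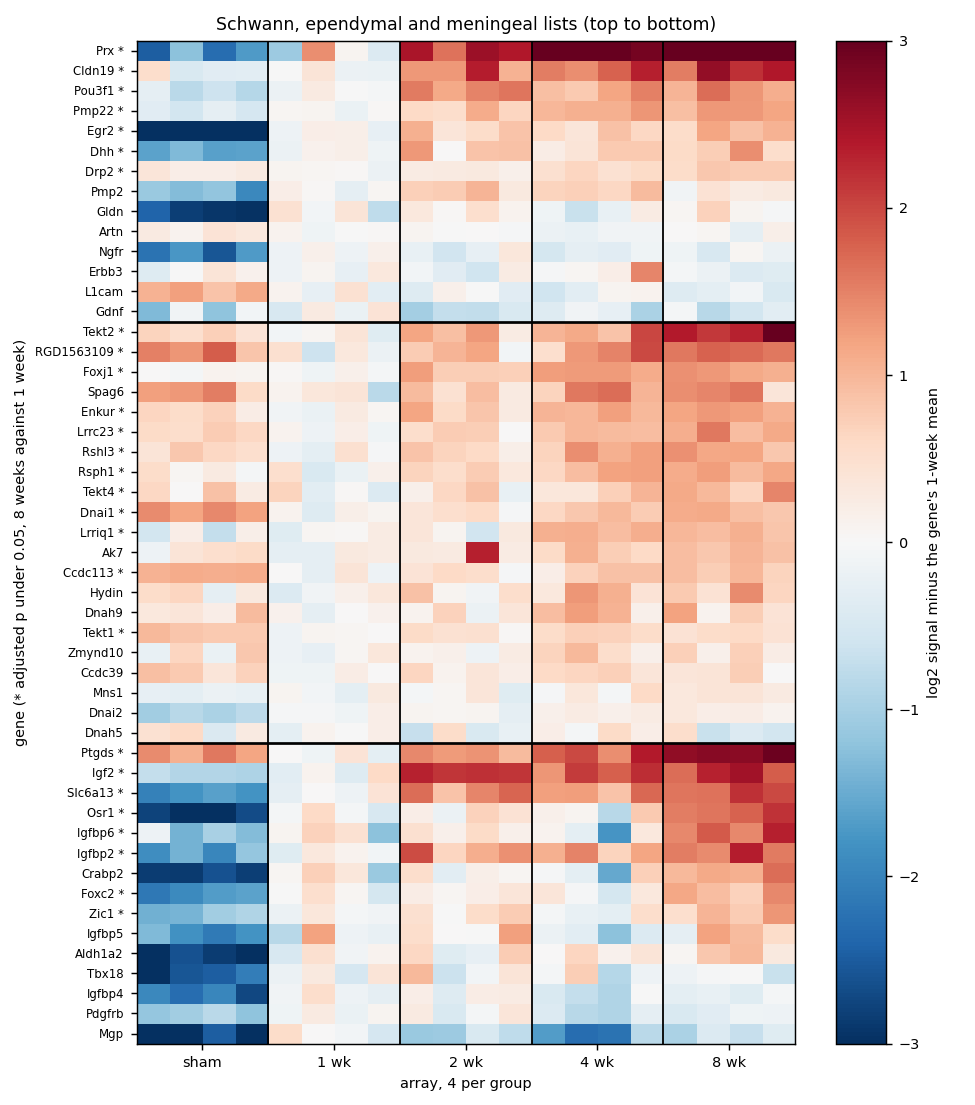
Log2 signal minus the gene's 1-week mean (colour) for 14 of the 15 measured Schwann cell genes, 21 ependymal and 15 meningeal genes (blocks from top to bottom) on the 20 arrays of the sham, 1-, 2-, 4- and 8-week groups (columns, 4 per group). Asterisks mark genes called at 8 against 1 week. The blocks differ at sham, where most Schwann cell and meningeal genes are below their 1-week mean and most ependymal genes above it.

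Astrocyte genes were called higher for 10 of 23 and lower for 2 (median 0.50, and 0.40 in the undisputed arrays with 2 called higher), with between 6 and 9 called higher when an array was left out. Aldh1l1, a folate enzyme that marks astrocytes, gave 11.85, 11.82, 11.84 and 12.27 at T1 and 13.24, 13.15, 13.19 and 12.92 at T8 (1.18 ± 0.16, limma adjusted p = 1.64e-05), with the sham mean of 12.81 between the groups. Sox9, a transcription factor of astrocytes and ependymal cells, rose by 0.93 (SE 0.15; 0.51 with normexp). Gfap, the intermediate filament of reactive astrocytes, had a change of 0.89 and Vim one of -0.21, and neither was called. Changes over the 23 genes ran from -1.70 to 1.18, with 7 below 0. The 2 genes called lower are not described here, so the genes named do not show the falls.

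Neuronal genes did not differ detectably between 1 and 8 weeks over the 8 arrays. None of 32 was called by limma, 0 passed an unadjusted p of 0.05, and their changes lay between -0.58 and 0.28 (median -0.26). In the undisputed arrays, with a single T1 array, the median was -0.57 and 28 of 32 changes were below 0. In the second scan session the median was -0.03. Each of the 32 had signal above background throughout. Relative to sham, 30 were called lower at T1 (25.1% of all features) and 30 at T8 (21.5%). Interferon response genes (0 of 25 called by limma, 5 at an unadjusted p under 0.05) had a median of 0.40, but 1.05 in the undisputed arrays against 0.23 in the second scan session. In the undisputed arrays taken alone, 4 of these 25 were called higher. With an array left out the median ranged from 0.18 (without T1 replicate 3) to 0.67 (without T1 replicate 2, where 3 were called higher). Of 24 genes of T cells and cytotoxic cells 1 was called, Ccl5, a chemokine of activated T cells (1.37 ± 0.36, limma adjusted p = 0.0139). Its change was 1.22 without T1 replicate 3 and 1.27 without T8 replicate 2, and in neither case was it called.

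Cyclic AMP signalling couples receptors to protein kinase A and to the exchange factors Epac. Of 27 genes of this pathway, 3 were called higher and 3 lower (median -0.08, and -0.19 in the undisputed arrays). With an array left out, between 1 and 4 were called lower. Ppp1r1b, encoding DARPP-32, an inhibitor of protein phosphatase 1 that is switched on by protein kinase A, gave 7.20, 7.17, 7.46 and 7.41 at T1 and 9.53, 9.06, 9.35 and 9.41 at T8 (2.03 ± 0.20, limma adjusted p = 3.81e-07). All T8 values were above all T1 values, and the sham mean was 8.72. Rapgef3, encoding Epac1, rose by 0.91 (SE 0.21, limma adjusted p = 0.00435), and in the undisputed arrays it kept its direction but not its call. Rapgef4, encoding Epac2, was not found among the gene names of the array, so Epac2 is not covered here. The catalytic subunits Prkaca (0.03) and Prkacb (0.04) were not called.

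Cntf, a ciliary neurotrophic factor of glia, rose by 1.15 (SE 0.18, limma adjusted p = 1.46e-04), 1 of 20 growth factor genes of which 3 were called higher and 3 lower. Of 23 genes of cholesterol synthesis 7 were called lower and 1 higher (median -0.40, and -0.33 in the undisputed arrays). Between 4 and 7 were called lower when an array was left out. Sqle, squalene epoxidase, fell by 0.63 (SE 0.12) and Stard4, a sterol carrier, by 0.92 (SE 0.14; change with normexp -0.55), while Dhcr7, which completes the synthesis, rose by 0.97 (SE 0.21). All 23 were called below sham at T1 (25.1% of all features) and 22 at T8 (21.5%). Ldha, lactate dehydrogenase A, fell by 1.09 (SE 0.18), with 5 of 21 glycolysis and hypoxia genes called lower. Dbp, an output gene of the circadian clock, rose by 0.93 (SE 0.22) and was 1 of 2 called among 18 clock genes. The clock list had a median change of 0.29, and of 0.27 in the undisputed arrays. The E-box CACGTG was in 3 of 16 clock gene promoters (18.8%) against 6.42% of all promoters. The matches were in Tef, Bhlhe40 and Bhlhe41, and Dbp was not among them. Of 15 immediate early genes 3 were called higher, and between 1 and 3 with an array left out. The median was 0.11 with 6 changes below 0, and 0.12 in the undisputed arrays. Among the called genes was Nr4a1, a nuclear receptor (0.79 ± 0.18). In the undisputed arrays Cntf, Sqle, Dhcr7, Dbp and Nr4a1 kept their direction but not their call.

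The means of the intermediate weeks did not enter the contrast, although their arrays contributed to the estimate of the spread, and T4 was set against T2 in the called features. Among the 1933 features called higher at T8, 79.7% had a higher mean at T4 than at T2, against 49.2% of all features. Among the 1568 called lower, 86.5% had a lower mean at T4 than at T2, against 50.8% of all features. Their median difference from T2 to T4 was 0.20 and -0.23, respectively. Relative to the sham mean, the features called lower had a median of 1.22 after 1 week, 0.74 after 2, 0.51 after 4 and 0.34 after 8 weeks, and those called higher had medians of -0.42, -0.01, 0.19 and 0.43. By these medians the 2 sets lay on opposite sides of the sham level at 1 week and somewhat above it at 8 weeks. The T1 and T8 medians come from the values that chose these features, so no conclusion is drawn from them.

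The scan session of the arrays was examined as a batch. The first session held 1 T1 and 2 T8 arrays and the second 3 T1 and 2 T8 arrays. With the session as a block in the model, 4523 features (12.8%) were called, 3463 of them in common with the fit without it.

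**Figure D5:**
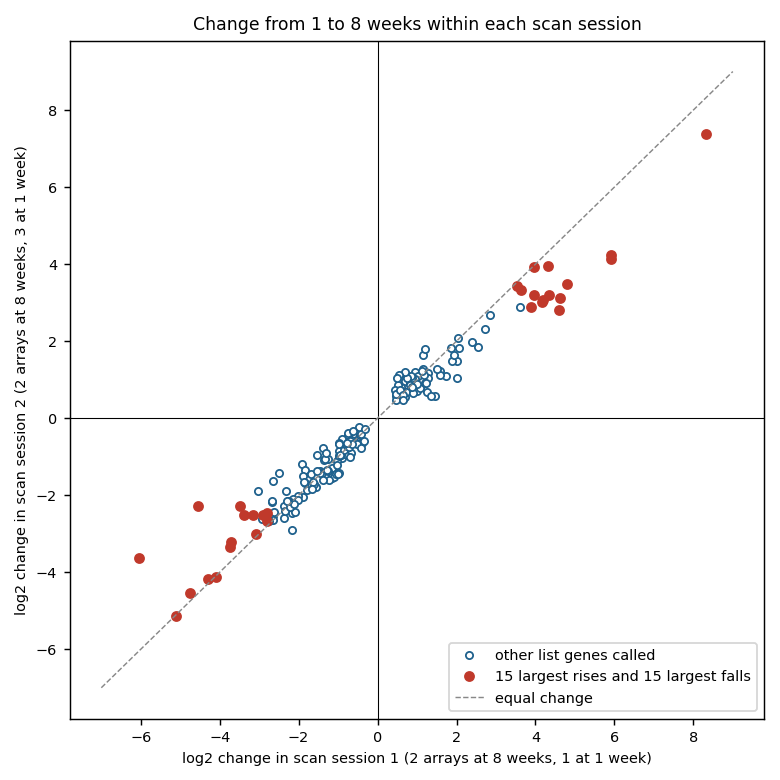
Log2 change from 1 to 8 weeks within the first scan session (horizontal axis, the 3 undisputed arrays) and within the second (vertical axis, 5 arrays whose scanner outputs were deposited under other samples). Filled points are the 15 largest rises and 15 largest falls, open points the other called genes of the lists, and the dashed line marks equal change. The plotted genes were called over these same 8 arrays, so that a shared direction follows largely from how they were chosen.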

How the data were processed

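Total RNA of 28 rat spinal cord samples was hybridised to Agilent whole rat genome arrays with a single dye. The authors deposited scanner outputs, with intensity values from Agilent Feature Extraction 10.7.1.1, and a table of quantile-normalised log2 values, which was used here. Rows were joined to the scanner annotation by feature number, 1639 control spots were left out, and 43379 spots were averaged to 41012 probes and these to 35469 gene names. limma 3.58.1 (R 4.3.3) was fitted to all 28 columns with 1 mean per group, with Benjamini-Hochberg adjustment over all features. The fit was tested on simulated data. Probes well above background came from the scanner output of matching rank order. Symbols were matched to RefSeq (GRCr8) for 16010 features. The comparison, the gene lists and the other genes named were chosen with earlier results of these data known. Of 611 list entries, 584 were found. Genes were named by the rule given in the report (the 15 largest rises and 15 largest falls), and further list members were picked after their values were seen. Some genes chosen by this rule are not reported here. Probe positions are those of the array annotation (rn4). Promoters came from RefSeq. Replicate numbers did not pair the samples (correlations of same-numbered deviations from -0.237 to 0.199). For normexp, median signals and local background medians were used with an offset of 50. Every column had a sample. Alternatives covered the columns fitted, blocks, normalisation, background, probes and left-out arrays. Precision is limited by 4 arrays per group. P-values rest on the spread between replicate arrays, pooled over all groups of the 28 columns. With only the T1 and T8 columns fitted, 3059 features were called.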

Additional observations from a re-analysis of the deposited data

Results flagged for a closer look

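In 8 of 194 groups of 4 arrays (97 named genes in T1 and in T8), 1 array stood apart from the other 3 by Dixon's criterion, which chance meets in about 1 in 20 groups. At T1, Agr2 was 3.94 in replicate 3 against 1.43 to 1.48 in the others, Aldh1l1 was 12.3 in replicate 4 against 11.8 to 11.9, and Ccnb1 was 10.6 in replicate 3 against 11.1 to 11.2. Mmrn1 was 2.44 in T1 replicate 1 against 3.72 to 3.94, and Trem2 was 17.1 there against 16.9. At T8, Igfbp2 was 14 in replicate 3 against 13.1 to 13.2, Prx was 11.8 in replicate 3 against 11.2, and Shcbp1 was 1.83 in replicate 1 against 1.43 to 1.44, all below background. All values are log2 signals, and the direction and call of these genes did not change when the array concerned was left out.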

How the results depend on the processing

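The choice of sample labels decided the result. With scanner outputs under their deposited samples, 0 features were called, 0 higher and 0 lower, and 19 of 97 named genes changed sign: C1qc 0.259, Ccl7 0.783, Ccna2 0.0169, Cd300le 0.388, Cd36 0.268, Cdc2 0.181, Fabp4 1.01, Hmox1 0.237, Lpl 0.335, Mmp2 0.11, Mmp8 0.54, Mmp9 0.0284, Mmrn1 -0.164, Plau 0.647, Sdc1 0.17, Spp1 0.209, Tgfb1 0.41, Top2a 0.0473 and Trem2 0.6 on the log2 scale. The other 78 kept their direction without a call. In the undisputed arrays 1363 features were called (666 higher, 697 lower), and 68 of the 97 genes were called while 29 kept only their direction; this fit holds 3 of the 8 arrays. A change of at least 2-fold left 1261 (678 higher, 583 lower). Scaling to the 75th percentile called 4047, of which 65.9% were higher against 55.2%, with the median of all features at 0.154. Leaving out 1 array gave 2569 to 3397 called (1399 to 1812 higher, 1123 to 1585 lower), and only Ccl5 among the 97 lost its call. Same-numbered replicates did not deviate together, and with the replicate block 3303 features were called (1828 higher, 1475 lower). The other alternatives gave 3059 to 4523 called, and where the 97 genes were refitted none lost its call or direction. With normexp 29 of the 97 changes were smaller by over 1.5 times and none was larger by as much. Signals not well above background give only bounds, which hold for the value table and not with normexp.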
